A study of Mus musculus with 8 samples.

Results

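Methionine cycle and methylation genes were followed in whole mouse liver from late gestation to adulthood. The group holds 10 genes, all found by symbol among the 22059 gene rows of the data, and all 10 passed the filter on low counts that left 17081 genes for testing. They are Mat1a, Mat2a and Mat2b (S-adenosylmethionine synthesis), Gnmt and Pemt (methyl transfer), Ahcy (hydrolysis of S-adenosylhomocysteine), Bhmt and Bhmt2 (remethylation), and Cbs and Cth (transsulfuration). RNA-seq of poly(A) RNA had been done on whole liver of wild-type FVB mice (FVB/NJ in the study's methods), with 2 libraries at each of embryonic day 18 (E18), postnatal day 14 (P14), postnatal day 28 (P28) and adulthood at 3 months. No treatment, transgene or deletion was involved. The study describes the samples as biological duplicates, and the labels give neither the sex nor the litter of the animals. The study's methods list adult FVB/NJ whole liver at 3 months as male. The comparisons ask how the expression of these genes changed across the postnatal maturation of the liver.

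The methionine cycle turns methionine into S-adenosylmethionine (SAM), the methyl donor of most methylation reactions in the cell. Each methyl transfer leaves S-adenosylhomocysteine, which AHCY splits into adenosine and homocysteine, and homocysteine is then either methylated back to methionine or passed through cystathionine to cysteine. SAM synthetase exists in a liver form, encoded by Mat1a, and a widely expressed form, encoded by Mat2a, whose activity is modulated by the subunit from Mat2b. The liver is the main site of methionine breakdown in the body, and Mat1a is a known mark of the mature hepatocyte whereas Mat2a is typical of fetal and proliferating liver.

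Promoter sequence is shown for 4 members that bracket the results, namely Mat2a and Mat2b, which changed least when libraries were scaled by TMM, the trimmed mean of M values, and Gnmt and Pemt, which rose most between E18 and adult. Each line gives the 250 bases upstream of the annotated RefSeq start on GRCm38.p6, all on the minus strand and written 5′ to 3′ on the strand of the gene. The windows lie at chr6:72439557-72439806 for Mat2a, chr11:40692683-40692932 for Mat2b, chr17:46729166-46729415 for Gnmt and chr11:60040189-60040438 for the upstream of the 2 listed Pemt starts. Capitals mark the TATA sequence TATAAA, the CCAAT sequence and the GC box GGGCGG, searched for on either strand, and neighbouring GGGCGG matches overlap in Mat2a.
Mat2a: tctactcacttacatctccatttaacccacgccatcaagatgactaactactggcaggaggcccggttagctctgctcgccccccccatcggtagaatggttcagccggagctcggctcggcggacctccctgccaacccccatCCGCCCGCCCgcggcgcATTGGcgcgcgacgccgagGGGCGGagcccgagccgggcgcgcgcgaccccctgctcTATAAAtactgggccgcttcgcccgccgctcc
Mat2b: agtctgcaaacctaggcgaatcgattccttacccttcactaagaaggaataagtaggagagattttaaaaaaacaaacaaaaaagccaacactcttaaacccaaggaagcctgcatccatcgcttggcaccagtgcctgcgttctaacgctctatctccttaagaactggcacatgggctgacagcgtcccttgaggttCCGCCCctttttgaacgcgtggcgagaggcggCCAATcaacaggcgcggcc
Gnmt: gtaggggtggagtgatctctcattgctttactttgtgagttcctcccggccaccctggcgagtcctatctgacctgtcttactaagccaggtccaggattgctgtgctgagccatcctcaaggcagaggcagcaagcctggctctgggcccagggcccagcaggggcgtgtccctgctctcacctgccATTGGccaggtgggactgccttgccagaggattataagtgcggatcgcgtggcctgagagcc
Pemt: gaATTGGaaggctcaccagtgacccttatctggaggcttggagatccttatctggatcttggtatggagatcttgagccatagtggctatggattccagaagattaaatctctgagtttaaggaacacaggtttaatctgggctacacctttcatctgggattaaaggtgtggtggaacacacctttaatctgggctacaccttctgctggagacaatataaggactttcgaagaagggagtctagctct

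The Mat2a window held all 3 motifs, with TATAAA starting 32 bases and CCAAT 89 bases upstream of the start. The Mat2b window held CCAAT at 19 bases and GGGCGG at 51 bases, whereas the Gnmt and Pemt windows held CCAAT alone, at 62 and 248 bases. Among 27025 promoters of the same length, 13.0% held TATAAA, 34.5% CCAAT and 32.9% GGGCGG. CpG dinucleotides were dense in the Mat2a window, at an observed over expected ratio of 1.1 that exceeded 96.6% of all promoters, and in that of Mat2b, at 0.83. They were sparser in the Gnmt window, at 0.26, and in the Pemt window, at 0.082, which exceeded only 12.6% of promoters. The median of all promoters was 0.38. The windows of Ahcy, Bhmt, Bhmt2 and Cbs had ratios of 0.52, 0.35, 0.62 and 0.74, respectively. GGGCGG was not limited to genes that changed little. It also lay in the windows of the rising members Ahcy (41 bases), Bhmt2 (155 and 40) and Cbs (88 and 33), though not of Bhmt. The window of the other listed Pemt start held none of the 3 motifs and had a ratio of 0.12. Mat1a and Cth had no entry in the promoter table used here. These are matches of letters in annotated windows, and start site use in these livers was not measured.

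Between 68154675 and 106055723 reads per library fell on genes. All 9 hepatocyte markers in the data rose between E18 and adult, and their summed level went from 52360 to 54970 counts per 1000000 reads (CPM) at E18 to 282600 to 283400 at P14, 188500 to 204600 at P28 and 110800 to 131500 in adult. All 8 erythroid markers fell, from a summed 9002 to 11610 CPM at E18 to between 72.9 and 83.0 later, and 9 of 10 neutrophil and B cell markers fell, from 571 to 640 CPM to 2.01 to 2.42 in adult. Across the libraries, summed macrophage markers ranged from 291 to 631 CPM, endothelial and stellate markers from 368 to 1632, bile duct markers from 45.03 to 93.1, and pancreatic acinar markers, 7 of 9 of which fell, from 257 and 548 at E18 to 32.6 to 119 later. Hepatocyte and erythroid markers moved with every E18 comparison below. By P14, 3 neutrophil and B cell markers rose and 6 fell, and 7 of 9 endothelial and stellate markers rose. Between E18 and adult, 7 of 9 endothelial and stellate, 5 of 8 macrophage and 4 of 6 bile duct markers fell, while 2, 2 and 1 rose. Markers that moved with the later intervals are given there. The part of these cell types in the results was not tested, and in bulk tissue fewer cells of a type and less RNA per cell cannot be told apart. Libraries of E18 needed TMM factors of 1.54 and 1.60, against 0.847 to 0.888 at later stages, so the size of each change from E18 depends on the scaling. The duplicates of E18 and of P14 also differed in sex-linked transcripts. Reads of Xist numbered 107378 in E18 replicate 1 against 10229 in replicate 2, and 50828 in P14 replicate 2 against 50 in replicate 1, whereas the P28 and adult libraries held 43 to 78. Reads of the Y-linked Ddx3y numbered 0 and 3421 in the E18 libraries, 4966 and 513 in those of P14 and 3178 to 4378 later, so E18 replicate 2 and P14 replicate 2 held both. All P28 and adult libraries held Ddx3y with few Xist reads, so sex-linked transcripts partly changed along with stage. Whether a library came from 1 animal or several is not given in the sources used here.

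Between E18 and adult, 8 of the 10 members rose, Mat2a fell and Mat2b was not called. Calls were made at a false discovery rate below 0.1 over all tested genes, a rule by which 39.5% of the 17081 genes rose and 43.8% fell. All 8 rises exceeded 3-fold, which 16.8% of all tested genes did upward and 23.8% downward, and no member fell over 3-fold. The median log2 fold change was 3.36 for the members and -0.11 for all tested genes. Without E18 replicate 1 and P14 replicate 2, the libraries with the most Xist reads, 8 members still rose and 1 fell. Levels are given as TMM-scaled RPKM throughout, which is reads per kilobase of transcript and 1000000 reads after TMM correction of the library size and allows comparison between genes.

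**Figure D1:**
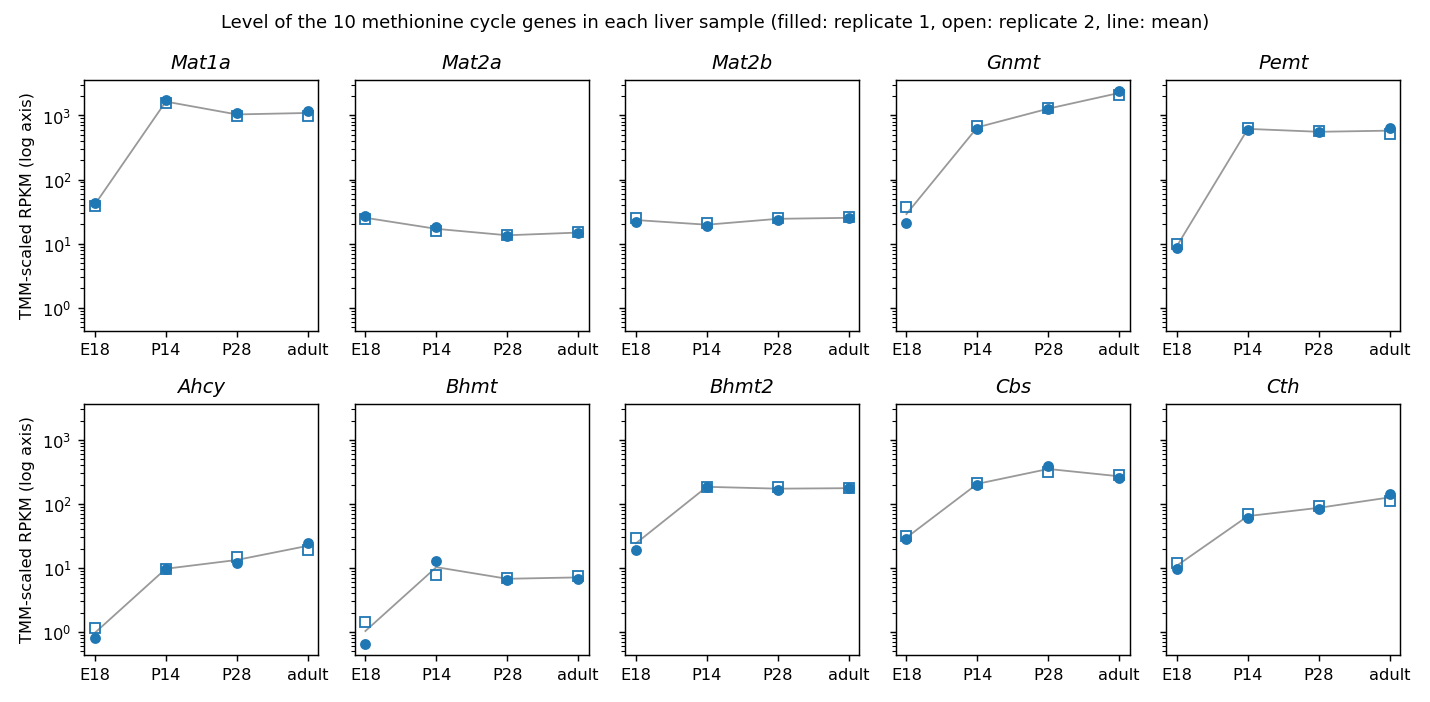
Level of each of the 10 genes (TMM-scaled RPKM, log axis) in the 8 liver libraries by stage, with replicate 1 as filled circles, replicate 2 as open squares and the line through the mean of the duplicates. In 8 genes both E18 libraries lie far below all later ones, with Gnmt reaching 2398 and 2096 in adult, whereas Mat2a and Mat2b stay between 13.3 and 26.65 at every stage.

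Mat1a, which encodes the catalytic subunit of the hepatocyte SAM synthetases, stood at 43.6 and 38.0 RPKM at E18, followed by 1734 and 1561 at P14, 1091 and 986 at P28 and lastly 1189 and 999 in adult. The E18 libraries lay apart from all others, and the P14 libraries lay above those of P28 and adult. Mat1a thus rose 40.4-fold between E18 and P14 (log2 fold change 5.34, SE 0.17, adjusted p = 1.8e-08), then fell by 0.67 on the log2 scale by P28 (SE 0.14, adjusted p = 0.0049). From P28 to adult the log2 difference was 0.07 (SE 0.14, adjusted p = 0.78). Its order among all genes by level went from 1083 at E18 to 33 at P14, 55 at P28 and 67 in adult.

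Mat2a, the catalytic subunit found in most tissues, stood at 26.65 and 23.9 RPKM at E18, then 18.3 and 15.6 at P14, 13.3 and 13.6 at P28 and finally 14.8 and 14.9 in adult. Its E18 libraries were the highest and those of P14 came next, without overlap. Mat2a fell by 0.57 on the log2 scale between E18 and P14 (SE 0.10, adjusted p = 0.00071) and by 0.77 between E18 and adult (SE 0.10, adjusted p = 9e-05), a 1.7-fold difference. The fall from P14 to P28 was 0.33 (adjusted p = 0.025), and the call was lost without P14 replicate 1 (adjusted p = 0.19) or P28 replicate 1 (adjusted p = 0.11). Its order among all genes was 1911, then 3272, 4108 and 3946.

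Mat2b, whose product binds the MAT2A enzyme and changes its response to SAM, varied least of the 10 genes under TMM, though not under hepatocyte-marker scaling. It measured 21.6 and 25.0 RPKM at E18, followed by 18.8 and 20.6 at P14, 23.6 and 25.1 at P28 and lastly 24.8 and 25.7 in adult. The E18 values overlapped those of P28 and adult (adult against E18, log2 fold change 0.12, SE 0.10, adjusted p = 0.30), although it was called higher in adult without E18 replicate 2 (0.23, adjusted p = 0.06). Mat2b fell by 0.24 from E18 to P14 (adjusted p = 0.05), a call lost without E18 replicate 2 or P14 replicate 1 (adjusted p = 0.28 in each case), and it rose by 0.30 from P14 to P28 (adjusted p = 0.032), a call lost without P14 replicate 1 (adjusted p = 0.19) or P28 replicate 2 (adjusted p = 0.17). Its direction between E18 and adult turned with the scaling, to -0.73 when only the library size was used.

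A ratio of Mat2a to Mat1a within a library does not depend on the scaling between libraries. Mat2a made up 37.9% and 38.6% of the summed Mat1a and Mat2a level at E18, then 1.05% and 0.992% at P14, 1.21% and 1.36% at P28 and finally 1.23% and 1.47% in adult. Put the other way, Mat1a was 1.64 and 1.59 times as abundant as Mat2a at E18 and 66.8 to 99.8 times as abundant in the 6 later libraries. How the shift divides between the genes does depend on the scaling. Under TMM, Mat1a rose 26.8-fold from E18 to adult while Mat2a fell 1.7-fold, whereas under hepatocyte-marker scaling the log2 fold changes were 2.66 for Mat1a and -2.84 for Mat2a. The log2 ratio of Mat2a to Mat1a was -0.69 ± 0.03 at E18, then -6.60 ± 0.06 at P14, -6.27 ± 0.13 at P28 and finally -6.20 ± 0.19 in adult (SD, n = 2 each). It differed between the stages in an exact permutation test of the F statistic over all 8 libraries (p = 0.019, adjusted over 5 ratios p = 0.048). The smallest p that this test can give is 0.0095, and single pairs of stages were not tested. Leaving out E18 replicate 1, either P14 library, P28 replicate 1 or either adult library moved the adjusted p of the exact test to between 0.063 and 0.095, with the adult to E18 difference between -5.64 and -5.37 against -5.51 with all libraries.

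**Figure D2:**
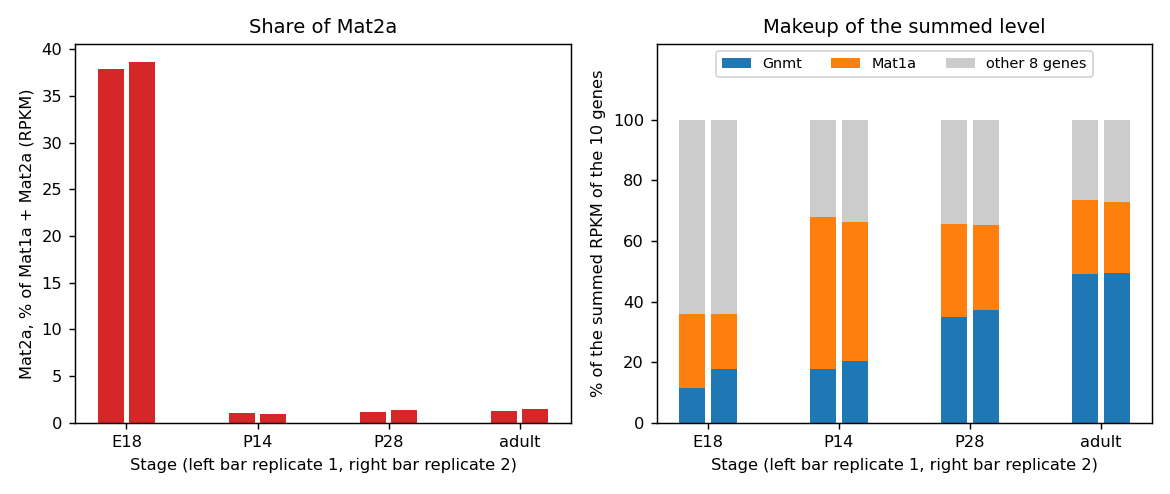
Left, Mat2a as a percentage of the summed Mat1a and Mat2a level (RPKM) in each library, with the left bar of each stage for replicate 1 and the right for replicate 2. Right, percentage of the summed level of the 10 genes taken by Gnmt, Mat1a and the other 8 genes, among them Ahcy and Bhmt, whose levels are uncertain. Mat2a drops from 37.9% and 38.6% at E18 to at most 1.47% later, and Gnmt reaches 49.1% and 49.4% in adult.

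The ratio of Mat2b to Mat2a shifted far less and in the other direction. Its log2 value was -0.12 ± 0.26 at E18, followed by 0.22 ± 0.25 at P14, 0.85 ± 0.03 at P28 and lastly 0.76 ± 0.03 in adult, and it differed between the stages (exact permutation test, p = 0.038, adjusted p = 0.048). Mat2b was the more abundant transcript of the pair in all 6 later libraries and in E18 replicate 2, and the E18 and P14 values overlapped. Any library left out, other than E18 replicate 2, moved the adjusted p of the exact test to between 0.079 and 0.12.

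Gnmt and Pemt, which draw on SAM as methyl donor, showed the largest rises of the 10 from E18 to adult. Gnmt encodes glycine N-methyltransferase, which uses surplus SAM to make sarcosine. It measured 20.7 and 37.1 RPKM at E18, then 612 and 695 at P14, 1253 and 1301 at P28 and finally 2398 and 2096 in adult. The libraries of the 4 stages did not overlap, and the level rose at every step. Gnmt was 22.6-fold higher at P14 than at E18 (log2 fold change 4.50, adjusted p = 5.4e-07) and 77.8-fold higher in adult than at E18 (log2 fold change 6.28, SE 0.29, adjusted p = 6.8e-08). It rose by 0.97 from P14 to P28 (SE 0.23, adjusted p = 0.0087) and by 0.82 from P28 to adult (SE 0.23, adjusted p = 0.047). The last call was lost without either P28 library (adjusted p = 0.20 and 0.15) or either adult library (adjusted p = 0.19 and 0.11). E18 replicate 2 had more Gnmt than replicate 1, and also more Mat2b, Pemt, Ahcy, Bhmt, Bhmt2, Cbs and Cth, but less Mat1a and Mat2a. That library also had the higher summed level of 10 pancreatic acinar markers, 548 against 257 CPM in replicate 1. The part of this in the differences between the duplicates was not tested.

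Pemt, which encodes the enzyme that methylates phosphatidylethanolamine to phosphatidylcholine, behaved as a step. It measured 8.51 and 9.86 RPKM at E18, followed by 599 and 636 at P14, 546 and 567 at P28 and lastly 648 and 511 in adult. The adult libraries spanned those of P14 and P28, and all 6 later libraries lay far above both of E18. Pemt rose 67.3-fold between E18 and P14 (log2 fold change 6.07, SE 0.17, adjusted p = 1e-08), the largest rise of any member in that interval. From P14 to P28 and from P28 to adult the log2 differences were -0.15 (adjusted p = 0.38) and 0.06 (adjusted p = 0.82).

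Ahcy, which encodes the hydrolase that removes S-adenosylhomocysteine, measured 0.802 and 1.14 RPKM at E18, then 9.76 and 9.65 at P14, 11.9 and 14.7 at P28 and finally 24.9 and 19.3 in adult. The stages did not overlap. Ahcy rose between E18 and P14 (log2 fold change 3.32, adjusted p = 5.7e-07) and 22.8-fold between E18 and adult (log2 fold change 4.51, SE 0.21, adjusted p = 6.5e-08). Smaller rises followed from P14 to P28 (0.46, adjusted p = 0.062), a call lost without P14 replicate 1 (adjusted p = 0.16), P14 replicate 2 (0.19) or P28 replicate 2 (0.31), and from P28 to adult (0.73, adjusted p = 0.026), a call lost without P28 replicate 1 or adult replicate 1 (adjusted p = 0.16 in each case). The level of Ahcy is uncertain. In the GENCODE M21 annotation 81.9% of its 2543 transcript bases lie in stretches of at least 100 bases that match another gene at 97% identity or more, chiefly Gm4737, and how reads with several matches were counted is not given in the sources used here. No rows for these copies were used here.

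Bhmt and Bhmt2 encode betaine-homocysteine and S-methylmethionine-homocysteine methyltransferases, which return homocysteine to methionine. Bhmt measured 0.661 and 1.41 RPKM at E18, followed by 12.8 and 7.75 at P14, 6.59 and 6.95 at P28 and lastly 6.76 and 7.47 in adult. Its duplicates spread widely at E18 and P14, where the standard deviation was 51.1% and 34.8% of the mean. The P14 libraries lay above those of P28 and adult, which overlapped. Bhmt rose between E18 and P14 (log2 fold change 3.32, SE 0.34, adjusted p = 2.2e-05) and was 6.91-fold higher in adult than at E18 (2.79, SE 0.34, adjusted p = 5.1e-05). Its decline from P14 to P28 was not called (-0.60, adjusted p = 0.14), although it was without P14 replicate 2 (-0.93, adjusted p = 0.059) and without either E18 library (-0.61, adjusted p = 0.055 in each case). As for Ahcy, the level is uncertain, since 75.1% of 2490 transcript bases match another gene, Gm5096 in particular.

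Bhmt2, of which only 4.4% matched another gene, measured 18.9 and 29.5 RPKM at E18, then 185 and 184 at P14, 165 and 180.4 at P28 and 176 in both adult libraries. All 6 later libraries lay within this narrow band, above both E18 libraries. Bhmt2 rose 7.62-fold between E18 and P14 (log2 fold change 2.93, SE 0.19, adjusted p = 9.9e-07), and the later log2 differences were -0.10 (adjusted p = 0.69) and 0.03 (adjusted p = 0.95). The log2 ratio of Bhmt2 to Bhmt was 4.61 ± 0.32 at E18 and 4.63 ± 0.10 in adult, and no difference between the stages was called (exact permutation test, p = 0.48). The uncertainty of the Bhmt level applies to this ratio.

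The other route back to methionine runs through methionine synthase, encoded by Mtr, which takes its methyl group from folate. Mtr measured 5.13 and 4.72 RPKM at E18 and 1.04 to 1.40 in the later libraries, so that it moved against Bhmt. It fell by 2.12 on the log2 scale between E18 and P14 (SE 0.14, adjusted p = 1.1e-06) and by 1.88 between E18 and adult (adjusted p = 1.7e-06). The log2 ratio of Bhmt to Mtr went from -2.35 ± 0.86 at E18 to 3.14 ± 0.34 at P14, 2.40 ± 0.24 at P28 and 2.41 ± 0.12 in adult (exact permutation test, p = 0.029, adjusted p = 0.048). At E18 the Mtr transcript was the more abundant of the 2 in both libraries, and in all 6 later libraries Bhmt was. Leaving out a library other than E18 replicate 2 or P28 replicate 2 moved the adjusted p of the exact test to between 0.063 and 0.12. The ratio inherits the uncertainty of the Bhmt level.

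Cbs, the enzyme that joins homocysteine and serine to cystathionine, peaked at P28. It measured 28.2 and 31.2 RPKM at E18, then 198 and 213 at P14, 384 and 317 at P28 and finally 258 and 281 in adult, with no overlap between the stages. Cbs rose between E18 and P14 (log2 fold change 2.79, SE 0.13, adjusted p = 1.5e-07) and between P14 and P28 (0.77, SE 0.13, adjusted p = 0.0012). It then fell by 0.38 from P28 to adult (SE 0.12, adjusted p = 0.077). This call was lost without either P14 library (adjusted p = 0.12 in each case), P28 replicate 1 (0.42), adult replicate 1 (0.31) or adult replicate 2 (0.16).

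Cth, which encodes the lyase that releases cysteine from cystathionine, kept rising instead. It measured 9.74 and 12.0 RPKM at E18, followed by 60.4 and 68.5 at P14, 82.3 and 91.2 at P28 and lastly 140.1 and 112 in adult, again without overlap. Cth rose between E18 and P14 (log2 fold change 2.57, SE 0.15, adjusted p = 5.3e-07), by 0.43 from P14 to P28 (adjusted p = 0.036) and by 0.54 from P28 to adult (adjusted p = 0.036). The middle call was lost without P14 replicate 1 (adjusted p = 0.19) or P28 replicate 2 (0.18), and the last without P28 replicate 1 (0.20) or adult replicate 1 (0.22). From these courses the log2 ratio of Cbs to Cth was 1.46 ± 0.11 at E18, then 1.67 ± 0.05 at P14, 2.01 ± 0.30 at P28 and finally 1.10 ± 0.32 in adult (exact permutation test, p = 0.0095, the smallest possible, adjusted p = 0.048). Only without P28 replicate 2 or adult replicate 2 did the adjusted p of the exact test stay at 0.048, and it was 0.095 to 0.12 without any other library.

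Under TMM and on the log2 scale, most of the change from E18 to adult in the 8 rising genes and Mat2a fell before P14. In RPKM, the larger gain came after P14 for 3 of them, by mean level at E18, P14 and adult. These were Gnmt (28.9, 653 and 2247), Ahcy (0.971, 9.71 and 22.1) and Cth (10.9, 64.5 and 126). Between E18 and P14, 8 members rose, all over 3-fold, while Mat2a and Mat2b fell. Of all tested genes 38.2% rose and 39.3% fell, with 13.8% and 15.4% over 3-fold. The median log2 fold change was 3.12 for the members and -0.03 for all genes, and the counts were the same without E18 replicate 1 and P14 replicate 2. Under hepatocyte-marker scaling the larger part came after P14 for 4 genes, since the log2 fold change by P14 and by adulthood was 0.11 and 1.45 for Cth, 0.33 and 1.11 for Cbs, 0.86 and 2.43 for Ahcy and 2.03 and 4.19 for Gnmt. From P14 to P28, Mat2b, Gnmt, Ahcy, Cbs and Cth rose, Mat1a and Mat2a fell, and Pemt, Bhmt and Bhmt2 were not called, against 25.2% and 28.6% of all genes that rose and fell. No member passed 3-fold, as 3.61% and 5.98% of genes did in either direction. In the same interval 9 of 10 neutrophil and B cell markers fell, from a summed 95.2 and 100.2 CPM to 3.66 and 3.48. So did 7 of 9 endothelial and stellate markers, from 1265 and 1632 CPM to 660 and 689. Of bile duct markers 5 of 6 fell, of erythroid markers 6 of 8 fell and 1 rose, and of hepatocyte markers 3 rose and 4 fell. Among macrophage markers 1 rose and 2 fell, and among pancreatic acinar markers 1 rose and 1 fell. The part of these cell types was not tested. Without E18 replicate 1 and P14 replicate 2, which left 1 library at each of those stages, the log2 fold changes in that interval were 0.44 for Ahcy and -0.92 for Bhmt. Without P14 replicate 1, 2 members rose and 1 fell, without P28 replicate 1, 1 fell, and without P28 replicate 2, 2 rose.

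From P28 to adult, Gnmt, Ahcy and Cth rose, Cbs fell and 6 members were not called, against 7.94% and 13.2% of all tested genes. None changed over 3-fold, as 0.767% of all genes did upward and 2.24% downward. All 8 macrophage markers fell in this interval, from a summed 631 and 522 CPM to 291 and 300.5. So did 7 of 9 endothelial and stellate markers, to 377 and 368 CPM. Of 9 hepatocyte markers 2 fell and 0 rose, and their sum went from 204600 and 188500 CPM to 131500 and 110800. Of erythroid markers 3 fell and 1 rose, while 3 neutrophil and B cell markers and 1 pancreatic acinar marker fell. The part of these cell types in these changes was not tested. The counts of 3 and 1 were the same without E18 replicate 1 and P14 replicate 2 together, but no member rose without P28 replicate 1 or without adult replicate 1. Over the longer span from P14 to adult, Mat2b, Gnmt, Ahcy, Cbs and Cth rose, Mat1a fell by 0.59, and the other 4 were not called, where 29.0% of all genes rose and 32.1% fell. Gnmt alone passed 3-fold there, at 3.44-fold (log2 fold change 1.78, adjusted p = 0.00024), as 4.35% of genes did upward and 11.1% downward.

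**Figure D3:**
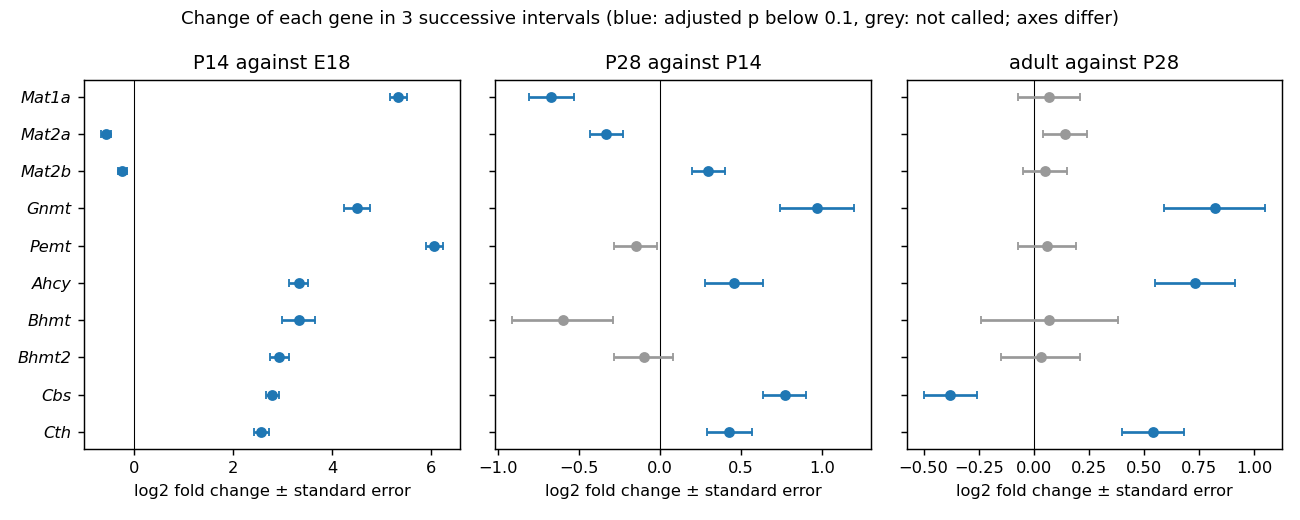
Log2 fold change of each gene with its standard error in the 3 successive intervals, from the edgeR fit to all 8 libraries, with blue for an adjusted p below 0.1 and grey for genes not called. The horizontal axes differ between panels. Changes before P14 reach 6.07 for Pemt, whereas later ones lie between -0.67 for Mat1a and 0.97 for Gnmt.

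Which changes held depended on what the libraries were scaled to. Relative to TMM, scaling by library size alone shifted the median log2 fold change of all genes between E18 and adult by -0.85, and scaling by the geometric mean of 9 hepatocyte markers shifted it by -2.08. Under hepatocyte-marker scaling, by which 9.60% of all genes rose and 84.5% fell, the same 8 members rose from E18 to adult, though only Mat1a (2.66), Gnmt (4.19), Pemt (3.89) and Ahcy (2.43) did so over 3-fold, as 4.92% of all genes did upward and 64.3% downward. The smallest of these rises were those of Bhmt (0.71, adjusted p = 0.06) and Bhmt2 (0.78, adjusted p = 0.0023), with Cbs at 1.11 and Cth at 1.45. Mat2a fell further, to -2.84, and Mat2b fell by 1.96 (adjusted p = 5.6e-08), where TMM had it at 0.12. Between E18 and P14, the same scaling left Mat1a (2.88), Gnmt (2.03) and Pemt (3.61) over 3-fold, while Cth was no longer called (0.11, adjusted p = 0.47). By P14 hepatocyte-marker scaling had 5.49% of all genes rising and 89.7% falling, 2.53% and 75.5% over 3-fold. Library size alone had 18.6% rising and 66.8% falling by P14, 7.41% and 29.8% over 3-fold, and 9.68% and 36.1% over 3-fold by adulthood. Mat1a, Gnmt and Pemt thus rose over 3-fold, and Mat2a fell, from E18 to P14 and to adult under TMM, library size and hepatocyte markers. The alternatives to TMM shift changes from E18 downward, so the fall of Mat2a could hardly lose its call.

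**Figure D4:**
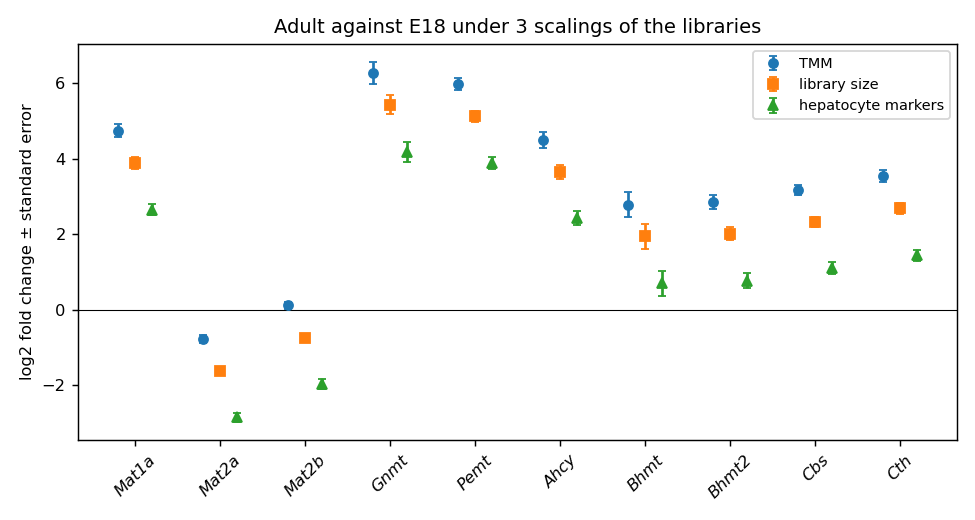
Log2 fold change from E18 to adult with its standard error for each gene when the libraries are scaled by TMM, by library size alone or by the geometric mean of 9 hepatocyte markers. All values shift down together, from 6.28 to 4.19 for Gnmt and from -0.77 to -2.84 for Mat2a, and Mat2b crosses 0.

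The makeup of the group changed along with its size. Summed over the 10 genes, the level was 179 and 209 RPKM at E18, 3411 to 3577 at P14 and P28, and 4880 and 4243 in adult. At E18 the order from the highest mean was Mat1a (40.8 ± 3.96), Cbs (29.7 ± 2.13), Gnmt (28.9 ± 11.6), Mat2a (25.3 ± 1.93), Bhmt2 (24.2 ± 7.45), Mat2b (23.3 ± 2.37), Cth (10.9 ± 1.60), Pemt (9.18 ± 0.953), Bhmt (1.03 ± 0.529) and Ahcy (0.971 ± 0.238), as mean and SD in RPKM. Each of the 5 genes from Cbs to Mat2b overlapped with its neighbours in that order, as did Cth with Pemt and Bhmt with Ahcy. In adult the order was Gnmt (2247 ± 213), Mat1a (1094 ± 135), Pemt (579 ± 96.8), Cbs (269 ± 16.9 RPKM), Bhmt2 (176), Cth (126 ± 19.6), Mat2b (25.2 ± 0.638), Ahcy (22.1 ± 3.96), Mat2a (14.9 ± 0.113) and Bhmt (7.12 ± 0.499). Only Mat2b and Ahcy overlapped there among neighbours. Mat1a led at P14, with 50.3% and 45.7% of the sum, and Gnmt led in adult, with 49.1% and 49.4%. These sums, shares and orders include Ahcy and Bhmt, whose levels are uncertain as given above. Gnmt moved from rank 1636 among all genes at E18 to 84, 45 and 30, and Pemt from 5015 to 93, 130 and 140. Of all reads on genes, the 10 members took 0.0672% and 0.0702% at E18 and 0.552% to 0.704% later.

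The genes whose course over the 8 libraries was most like that of Mat1a were Apoe (Pearson r = 0.9988), Cd300lg (0.9987) and Mterfd2 (0.9986), on log2 CPM. For Mat2a they were Fubp1 (0.9971), Chtf8 (0.9952) and Snord70 (0.9937). These are descriptions with no test, since 1501 genes lay above 0.95 for Mat1a and 802 for Mat2a, and the points share the contrast of E18 with all later stages.

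Genes around the cycle were taken from lists of the pathway, of which 61 were tested. Between E18 and adult 41 of them rose and 16 fell, with 25 and 8 over 3-fold and a median log2 fold change of 0.89, where 39.5% of all tested genes rose and 43.8% fell, 16.8% and 23.8% over 3-fold. This split turned with the scaling. By library size alone 28 rose and 23 fell, against 22.1% and 64.9% of all tested genes. By hepatocyte markers 18 rose and 38 fell, against 9.60% and 84.5%.

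The 17 genes of folate and cobalamin metabolism, which supply methyl groups to methionine synthase, divided into 8 that rose and 7 that fell under TMM, and 3 and 13 by hepatocyte markers. These counts lie near the shares of all tested genes, 39.5% and 43.8% under TMM and 9.60% and 84.5% by hepatocyte markers. The mitochondrial folate enzymes Mthfd1l (-4.74, adjusted p = 8.3e-09) and Mthfd2 (-4.57, adjusted p = 6.8e-08) fell most. Mthfd2 went from 47.7 and 40.4 RPKM at E18 to between 1.46 and 3.17 in all later libraries. Aldh1l2, also mitochondrial, fell by 3.32 (adjusted p = 0.0017), though its E18 duplicates differed, with 552 and 105 reads. Its cytosolic relative Aldh1l1 took the opposite course and rose from 10.4 and 18.8 RPKM to 719 and 679.9 (log2 fold change 5.58, adjusted p = 1.1e-07). Ftcd (3.41), which feeds one-carbon units from histidine breakdown into folate, and Mthfs (2.85) rose as well. Mtrr, the reductase that reactivates methionine synthase, fell by 0.51 from E18 to adult (adjusted p = 0.037). The rises of Aldh1l1, Ftcd and Mthfs between E18 and adult kept their calls under library size and hepatocyte-marker scaling. So did the falls of Mthfd1l, Mthfd2, Aldh1l2, Mtr and Mtrr, but both scalings shift changes from E18 downward. A fall could hardly lose its call there.

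All 6 tested genes of choline and betaine oxidation, which supply BHMT with betaine and break down its product, rose under TMM. By hepatocyte markers 5 rose and 1 fell. The shares of all tested genes that rose and fell were 39.5% and 43.8% under TMM and 9.60% and 84.5% by hepatocyte markers. Dmgdh and Sardh, the dehydrogenases of dimethylglycine and sarcosine, rose by 4.17 (adjusted p = 2e-08) and 3.14 (adjusted p = 4.4e-08). Sarcosine is the product of GNMT, and Sardh went from 19.9 and 23.8 RPKM at E18 to 187 and 195 at P14 and 207 and 178 in adult. Pipox, which oxidises pipecolate and sarcosine, rose by 3.69.

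Of 9 tested small-molecule methyltransferases that draw on SAM, 8 rose and 1 was not called under TMM, against 5 that rose and 3 that fell by hepatocyte markers. Over all tested genes the rising and falling shares were 39.5% and 43.8% under TMM and 9.60% and 84.5% by hepatocyte markers. Inmt, an indolethylamine N-methyltransferase, rose from 34 and 53 reads at E18, 0.24 and 0.423 RPKM, to 855 and 675 RPKM at P14 and 1155 and 708 in adult (log2 fold change from E18 to adult 11.47, adjusted p = 1.3e-08). Hnmt, which inactivates histamine, rose in each interval, from 0.352 and 0.434 RPKM to 20.2 and 22.8 (5.78, adjusted p = 3.4e-09). Nnmt, which methylates nicotinamide, rose in each interval. It had 4 reads in each E18 library, 1.51 and 1.59 RPKM at P14, 4.31 and 3.26 at P28, reaching 30.05 and 18.4 in adult. It rose by 5.53 between E18 and P14 (SE 0.42, adjusted p = 3e-06), by 1.29 between P14 and P28 (adjusted p = 0.0029) and by 2.68 from P28 to adult (SE 0.24, adjusted p = 0.00027).

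All 11 genes of cysteine, taurine and glutathione metabolism, downstream of transsulfuration, rose under TMM, while 4 rose and 5 fell by hepatocyte markers. Among all tested genes, 39.5% rose and 43.8% fell under TMM, against 9.60% and 84.5% by hepatocyte markers. Cdo1, the dioxygenase that commits cysteine to oxidation, stood at 27.0 and 32.4 RPKM at E18 and 1203 and 1246 in adult (5.37, adjusted p = 3.9e-09). Sqrdl, which oxidises sulfide, rose by 6.04 (adjusted p = 2.7e-09) and Suox, the sulfite oxidase, by 3.59 (adjusted p = 1.5e-06), and these 3 genes rose under each scaling.

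The adenosine released by AHCY is phosphorylated by adenosine kinase, and Adk rose from 46.2 and 48.9 RPKM at E18 to 236 and 228 at P14 and 452 and 448 in adult (3.24, adjusted p = 1e-08). Ada, which deaminates adenosine, was the single gene of the 4 in this list to fall under TMM (-1.16, adjusted p = 0.00028), while 3 rose. By hepatocyte markers 1 rose and 3 fell. Of all tested genes, 39.5% rose and 43.8% fell under TMM, and 9.60% and 84.5% by hepatocyte markers. Adk and Ada kept their calls under each scaling. The alternatives to TMM shift changes from E18 downward, so the fall of Ada could hardly lose its call.

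**Figure D5:**
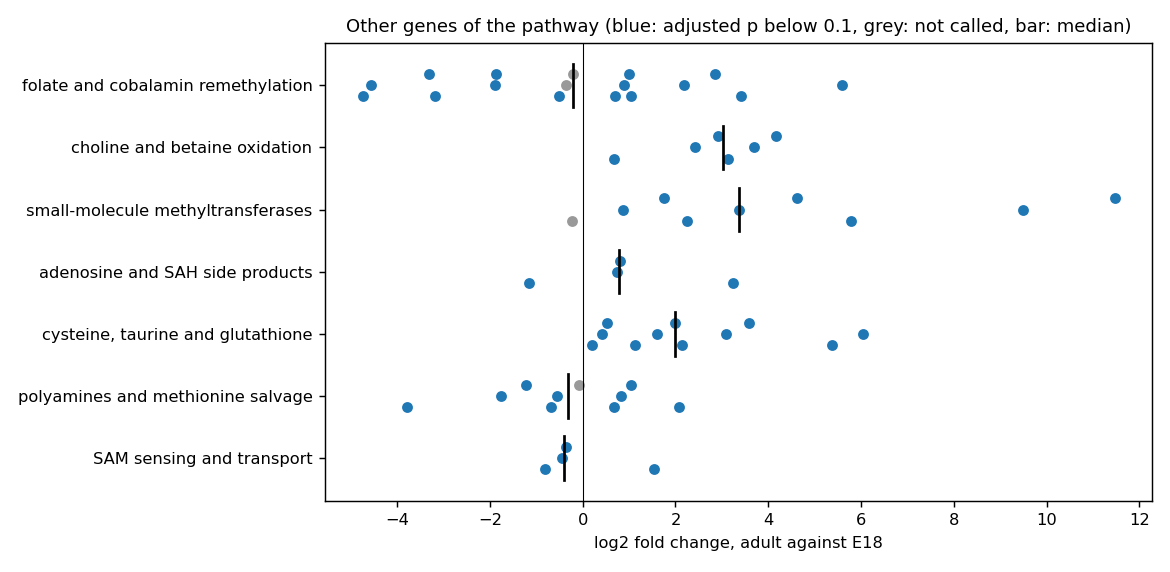
Log2 fold change from E18 to adult, scaled by TMM, of the 61 tested genes around the methionine cycle by list, with blue for an adjusted p below 0.1, grey for genes not called and the bar for the median of the list. All genes of choline and betaine oxidation and of cysteine, taurine and glutathione metabolism lie right of 0 under this scaling, and folate genes spread from -4.74 to 5.58.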

How the data were processed

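The authors sequenced poly(A) libraries as 100 bp read pairs, and per the labels' processing notes the build was mm9. The aligner is not named in the sources used here, and RNA isolation is given as Trizol in the labels and as an RNeasy kit in the Methods. For each gene the authors deposited raw read counts without normalization. They also deposited RPKM, the counts per kilobase and 1000000 mapped reads. Transcript lengths were recovered from the deposited counts and RPKM.

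Counts were filtered with filterByExpr and fitted with edgeR (version 4.0.16), TMM scaling and 1 coefficient per stage over all 8 libraries, using the quasi-likelihood test. A gene was called when its adjusted p (Benjamini-Hochberg) was under 0.1, and calls over 3-fold were counted again. The standard error is the size of the log2 fold change divided by the square root of F. The fit was tested on simulated data. Log2 ratios of the deposited RPKM, with no pseudocount, were tested by an exact permutation test of the F statistic over 2520 arrangements, 5 ratios in all, called at an adjusted p below 0.05. Alternatives used DESeq2 (version 1.42.0), limma (version 3.58.1) on log2 of RPKM plus 0.1, other scalings, other filters and left-out libraries. Transcripts of the members and of Mtr were compared with those of other genes by BLAST (version 2.17.0). The other pathway genes, Odc1 among them, were not checked for near-identical copies. Motifs were searched on both strands.

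The comparison of adult with P14 and the fit without E18 replicate 1 and P14 replicate 2 were added after seeing the data. Members and lists were chosen with earlier results of these data known. The genes named are the 10 members, the most similar 3 to Mat1a and to Mat2a, up to 3 per pathway list and direction over 3-fold from E18 to adult, and Mtr, Mtrr, Nnmt and Mettl16 in any case. Another gene that the rule names is not reported here. Ada, Mettl3, Mettl14, Slc25a26 and the sex-linked genes lie outside that rule and were named after their values were seen. Ahsp, Tf and Asmt were not analysed here. The samples are biological duplicates by the study's account, and the p-values measure the spread between these libraries. No pairing of the libraries by replicate number was seen, as the correlation of deviations between same-numbered libraries lay between -0.301 and 0.116 over 13121 genes. With 2 libraries per stage this cannot exclude a batch shared by replicate number.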

Additional observations from a re-analysis of the deposited data

How the results depend on the processing

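Direction and side of the threshold held for 678 of the 720 alternative values of single members. Another 31 lost a call, 8 gained one and 3 turned direction, all 3 for Mat2b between E18 and adult, at -0.73 by library size alone, -1.96 by hepatocyte markers and -0.75 with limma on log2 RPKM. Between E18 and adult, 2 members instead of 1 fell under these 3 settings, with 1, 2 and 1 over 3-fold, and 4 instead of 8 rose over 3-fold by hepatocyte markers. Between E18 and P14 hepatocyte markers left 3 that rose and 2 that fell over 3-fold, and 1 fell when only both stages were fitted. From P14 to P28, 1 fell by hepatocyte markers. From P28 to adult, 0 members fell by hepatocyte markers, with the replicate block or at a false discovery rate below 0.05. With a library left out, 1 to 2 members fell by P14, 2 to 5 rose and 1 to 3 fell by P28, and 0 to 3 rose and 0 to 1 fell by adulthood, where a lone library is assumed to vary like the other stages. Pathway genes by hepatocyte markers counted 18 rises and 38 falls, 9 and 22 over 3-fold.

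With a library left out, the adult minus E18 log2 ratio ranged from -5.64 to -5.37 for Mat2a to Mat1a, 0.70 to 1.07 for Mat2b to Mat2a, 4.15 to 5.36 for Bhmt to Mtr and -0.58 to -0.13 for Cbs to Cth. The replicate block kept these ratios at -5.51, 0.88, 4.76 and -0.35, with adjusted p of the exact permutation test at 0.069, 0.069, 0.10 and 0.069. The smallest unadjusted p that this test can give over its 576 arrangements is 0.042, so with 5 ratios it could hardly pass 0.05 and says nothing about stability. No pairing by replicate number was seen, and the block changed no other call but that of Cbs between P28 and adult (adjusted p = 0.11). The causes of these changes were not tested. Depth was not limiting for most members, but 190 and 357 Bhmt reads and 283 and 354 Ahcy reads at E18, and 4 Nnmt reads, limit the precision of folds from E18, and intervals cover these libraries only.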

Other observations

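Polyamine synthesis consumes SAM, and the methionine salvage pathway recovers its by-product. Of the 10 genes in this list, 4 rose and 5 fell between E18 and adult under TMM, with a median log2 fold change of -0.31, and 0 rose and 9 fell by hepatocyte markers. The counts lie near the shares of all tested genes, of which 39.5% rose and 43.8% fell under TMM and 9.60% and 84.5% by hepatocyte markers. Odc1, the ornithine decarboxylase that opens polyamine synthesis, fell from 3.83 and 6.11 RPKM at E18 to between 0.265 and 0.57 in all later libraries (log2 fold change from E18 to adult -3.78, SE 0.31, adjusted p = 3.1e-06). In methionine salvage, Enoph1 fell from 9.53 and 9.57 RPKM at E18 to 5.77 and 5.28 at P14, 3.17 and 3.23 at P28, ending at 3.30 and 2.32 in adult (-1.77, adjusted p = 7.2e-06). Adi1, the next enzyme of that pathway, rose from 21.1 and 22.6 RPKM at E18 to 98.8 and 86.0 in adult (2.08, adjusted p = 8.4e-08), but it was not called by hepatocyte markers (0.00, adjusted p = 0.99).

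Mettl16 encodes the RNA methyltransferase known to adjust Mat2a splicing and stability to the supply of SAM. It measured 11.3 and 11.2 RPKM at E18, followed by 8.01 and 7.19 at P14, 6.11 and 6.35 at P28 and lastly 8.51 and 7.97 in adult, and it fell by 0.45 from E18 to adult (SE 0.09, adjusted p = 0.0016). Mettl3 (-0.35, adjusted p = 0.0054) and Mettl14 (-0.82, adjusted p = 8.4e-05), the subunits of the main mRNA adenosine methyltransferase, fell too. All 3 falls kept their call under library size and hepatocyte-marker scaling. Both scalings shift changes from E18 downward, so these falls could hardly lose their call. Slc25a26, which carries SAM into mitochondria, rose from 2.31 and 2.47 RPKM at E18 to 6.95 and 6.91 in adult (1.54, adjusted p = 9.9e-07), a direction that turned to -0.54 by hepatocyte markers (adjusted p = 0.0024).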
